A study of Mus musculus with 107 samples.

Results

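The mouse Hox genes lie in 4 clusters, and 38 of them were followed here across every kind of deposited data: 10 of cluster A on chromosome 6 (Hoxa2 to Hoxa7, Hoxa9 to Hoxa11 and Hoxa13), 10 of cluster B on chromosome 11 (Hoxb1 to Hoxb9 and Hoxb13), 9 of cluster C on chromosome 15 (Hoxc4 to Hoxc6 and Hoxc8 to Hoxc13) and 9 of cluster D on chromosome 2 (Hoxd1, Hoxd3, Hoxd4 and Hoxd8 to Hoxd13). They were taken by name from 51435 counted gene IDs, as a family chosen with earlier results of these data known. The 107 samples come from a study of Polycomb-dependent chromatin contacts in mouse embryonic stem cells and of cells that lost single Polycomb-bound elements. ChIA-PET, which sequences paired-end tags (PETs) from 2 DNA pieces joined because a chosen protein held them together, was run in E14, a feeder-free line grown in serum with LIF, and in the B6NJ line.

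RNA was measured in 8 deletion clones of B6NJ and in the unedited parental B6NJ line. The labels name each clone after the chromosome of its deleted element: chr9-F1 (2 libraries) and chr9-G9 (3) lack chr9:37451506-37461721, and chr7-D4 and chr7-F4 (3 each) lack chr7:143440438-143450716. The clones chr3-C2, chr3-H7, chr2-D10 and chr2-G5 (3 each) carry elements deleted on chromosomes 3 and 2, at intervals that the labels used here do not state. The parental line gave 3 libraries. Each clone is a single isolate, every B6NJ line was grown on irradiated mouse embryonic fibroblast feeders with the kinase inhibitors PD0325901 and CHIR99021, and the feeders were part of the culture. Ezh2 ChIA-PET was made in 10 libraries, 2 from each of chr9-F1, chr9-G9, chr7-D4, chr7-F4 and parental cells. No label names a Hox gene as the deleted item, so the RNA of the members gives no check of the labels.

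Hox genes encode homeodomain transcription factors that give cells their position along the head-to-tail axis and, for the high-numbered genes, along limbs, gut and urogenital tract. Within a cluster the genes are numbered by their place, the 4 clusters arose from copies of 1 ancestral cluster so that genes of the same number (paralogs) are related, and low-numbered genes are used early and toward the head while high-numbered genes are used late and toward the tail. In embryonic stem cells the clusters are the classic targets of Polycomb repressive complex 2 (PRC2), whose subunits Ezh2, Suz12 and Eed place trimethylation on lysine 27 of histone H3 (H3K27me3), a mark of silenced genes.

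Promoter sequence was matched for 22 of the 38 members, as 24 windows of 300 bases from RefSeq (GRCm38.p6), each reaching 250 bases before and 50 after the start. The following 4, 1 from each cluster, belong to genes whose RNA was called in both clones of a deletion. They are printed 5′ to 3′ on the gene's strand with every CG dinucleotide in capitals, since PRC2 in stem cells sits on CG-rich DNA.
Hoxa9: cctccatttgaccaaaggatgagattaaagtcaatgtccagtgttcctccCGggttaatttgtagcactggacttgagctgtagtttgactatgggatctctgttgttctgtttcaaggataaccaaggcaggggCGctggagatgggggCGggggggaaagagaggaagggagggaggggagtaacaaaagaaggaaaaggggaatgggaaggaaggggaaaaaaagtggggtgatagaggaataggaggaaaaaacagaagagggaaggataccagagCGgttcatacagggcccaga
Hoxb4: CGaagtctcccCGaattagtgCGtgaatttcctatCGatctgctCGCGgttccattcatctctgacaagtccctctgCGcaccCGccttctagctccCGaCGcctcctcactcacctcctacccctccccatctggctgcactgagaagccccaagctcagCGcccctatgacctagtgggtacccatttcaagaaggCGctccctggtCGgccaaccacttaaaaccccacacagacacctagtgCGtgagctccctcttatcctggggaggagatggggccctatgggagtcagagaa
Hoxc4: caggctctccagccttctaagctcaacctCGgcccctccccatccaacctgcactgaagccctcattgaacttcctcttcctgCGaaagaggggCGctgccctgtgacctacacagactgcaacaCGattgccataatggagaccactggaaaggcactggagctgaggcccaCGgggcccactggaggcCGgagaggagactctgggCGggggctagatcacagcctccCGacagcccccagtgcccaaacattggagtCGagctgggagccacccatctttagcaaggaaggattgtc
Hoxd9: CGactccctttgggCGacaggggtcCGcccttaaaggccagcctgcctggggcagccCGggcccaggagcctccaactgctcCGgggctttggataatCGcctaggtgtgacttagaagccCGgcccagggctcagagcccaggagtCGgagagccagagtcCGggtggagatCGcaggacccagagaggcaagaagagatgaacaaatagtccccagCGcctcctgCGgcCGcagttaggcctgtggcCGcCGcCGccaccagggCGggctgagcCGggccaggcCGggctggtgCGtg

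The windows are chr6:52227321-52227620 on the minus strand for Hoxa9, and, on the plus strand, chr11:96318017-96318316 for Hoxb4, chr15:103034145-103034444 for Hoxc4 and chr2:74697513-74697812 for Hoxd9. They hold 4, 14, 9 and 20 CG dinucleotides in that order, and no window of the 24 holds fewer than the 4 of Hoxa9. Over the 24 windows the median was 14.5 CG, against 7 over 32851 mouse promoters of the table. All 24 lay within a PRC2 peak of E14 cells and 22 within an H3K27me3 peak. The TATA motif TATAAA, searched on both strands, was found in 4 windows (16.7%, against 13.6% of all promoters). TGATNNAT, a form of the site that Hox proteins bind together with cofactors, was found in 4 (16.7%, against 8.85%), and the direct repeat bound by retinoic acid receptors in 0 (0.00913% of all promoters). These are letters in a window, and no factor's binding was measured there.

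In E14 cells every one of the 38 genes lay under PRC2 and H3K27me3. A single PRC2 peak of 128 kb covered 100% of the Hoxa cluster (chr6:52162417-52260880 from the first to the last listed gene, GRCm38.p6), and it was the longest of 23646 PRC2 peaks, whose median length was 362 bp. The PRC2 peaks covered 71.0% of the Hoxb span (chr11:96194316-96368254), 98.3% of the Hoxc span (chr15:102921131-103036856) and 95.1% of the Hoxd span (chr2:74668225-74765142). Most of the uncovered part of Hoxb lies between Hoxb13, the gene set apart at the cluster's high-numbered end, and Hoxb9.

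H3K27me3 followed the same outline, with 100%, 70.1%, 94.0% and 89.6% of the spans of Hoxa, Hoxb, Hoxc and Hoxd covered. Its longest of 4347 peaks, 110.4 kb, was again that of Hoxa. All 38 members had at least 50% of their length under PRC2 and under H3K27me3, which held for 3.19% and 1.75% of 21896 protein-coding genes. The least covered member was Hoxc4, with 91.3% of its length under PRC2 and 74.5% under H3K27me3.

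The highest fold enrichment of a PRC2 peak, as the authors' peak caller gave it, was 21.9 in Hoxa, 23.8 in Hoxb, 19.3 in Hoxc and 24.5 in Hoxd, against a median of 2.34 over the whole list. RNA polymerase II ChIP peaks touched none of the 38 members but 51.3% of protein-coding genes. Polymerase ChIA-PET peaks touched 8 members (21.1%, against 68.6%), among them Hoxb9, Hoxc13, Hoxd13, Hoxd8 and Hoxd1. CTCF, a factor that bounds chromatin loops, had peaks in 8 members as well (21.1%, against 41.1%). The peak lists pool libraries, so they carry no replicate error, and gene length, which differs between genes, enters any count of overlaps.

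**Figure D1:**
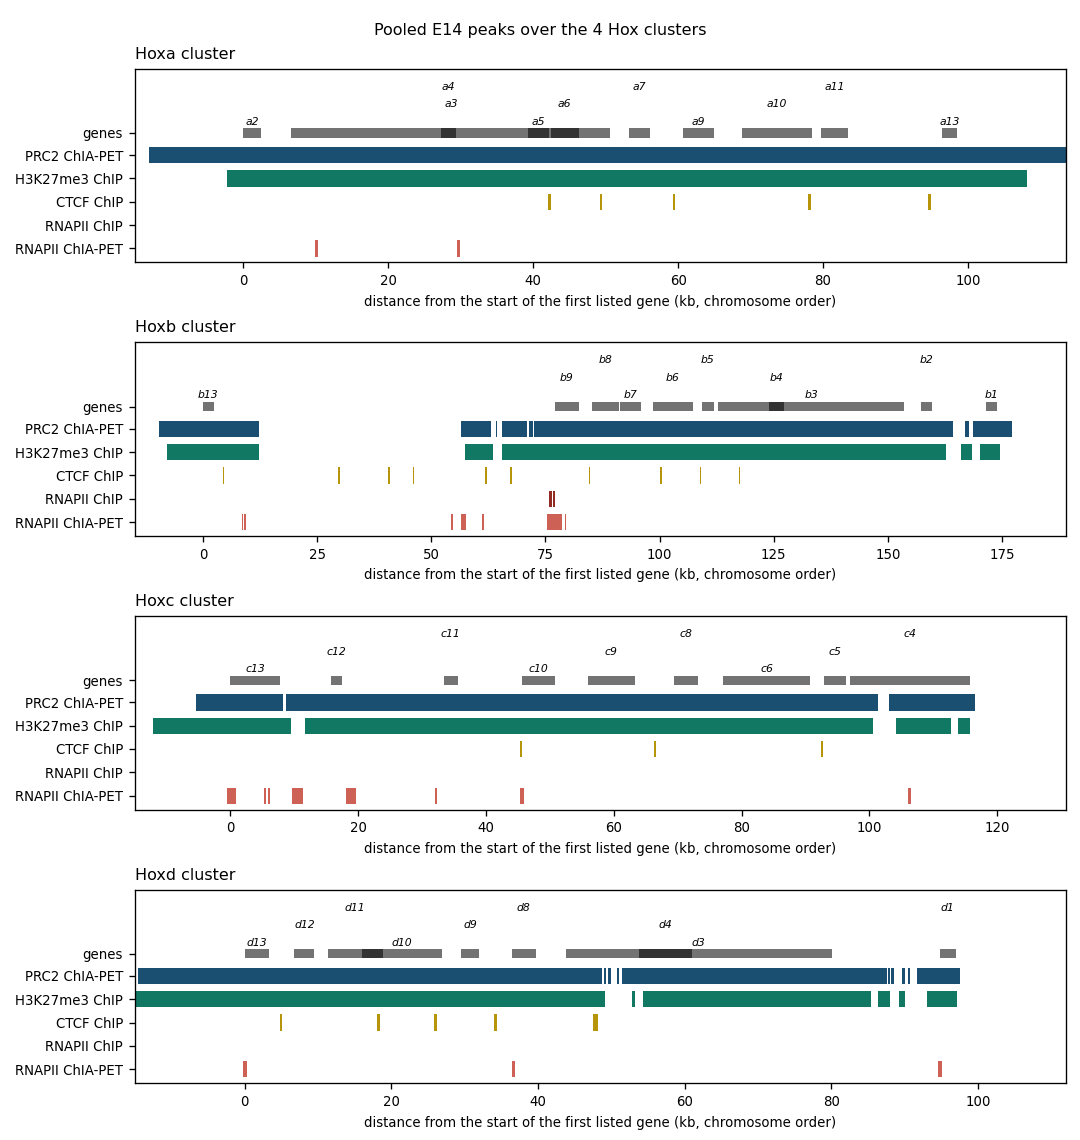
Peaks of the pooled E14 lists over each Hox cluster, drawn against distance (kb) from the start of the first listed gene, with 1 row each for genes, PRC2 ChIA-PET, H3K27me3 ChIP, CTCF ChIP, RNA polymerase II ChIP and RNA polymerase II ChIA-PET. PRC2 and H3K27me3 fill Hoxa entirely and leave the gap between Hoxb13 and Hoxb9 open.

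The 4 clusters were also among the strongest contacts of the pooled E14 PRC2 interaction list, which gives contacts within chromosomes (309976 interactions, median 3 PETs). An interaction was counted as inside a cluster when both ends overlapped its span, even if they reached past it. The largest held 21493 PETs in Hoxa, 17423 in Hoxd, 14550 in Hoxb and 13363 in Hoxc, ranks 2, 3, 6 and 7 of the whole list. In Hoxa, Hoxc and Hoxd this was the only interaction inside the cluster. Both of its broad ends covered the whole span, reached past it and overlapped each other. Hoxb had 19 inside interactions with 17970 PETs in all, of which 1 with 1849 PETs joined the Hoxb13 end to the rest of the cluster and 1 with 1446 PETs lay at the Hoxb13 end. Together the interactions inside the clusters took 70249 PETs, 1.94% of all 3627625. Of that total, 1643362 PETs belonged to interactions with an end overlapping chr2:98661285-98668265.

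From the clusters, 1050 interactions led outward: 224 from Hoxa, 244 from Hoxb, 229 from Hoxc and 353 from Hoxd. A PRC2 peak lay at 41.0% of the outward partners, against 19.5% of all interaction ends, and an H3K27me3 peak at 31.4%, against 8.85%. The median distance was 267 kb for Hoxc but 32193 kb for Hoxa, 19440.1 kb for Hoxb and 37779 kb for Hoxd. At 10 or more PETs only 11, 3, 29 and 10 outward interactions were left for Hoxa, Hoxb, Hoxc and Hoxd.

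Hoxa and Hoxd each had a strong partner that every Ezh2 library of the B6NJ lines listed too. Hoxa contacted chr6:51168121-51185559, 977 kb away and nearest to Gm38821, with 204 PETs in E14 cells. In the Ezh2 libraries this contact held 122, 228, 101 and 67 PETs in the chr9 clones, 783, 881, 317 and 92 PETs in the chr7 clones, and 180 and 377 PETs in parental cells. Hoxd contacted chr2:75133920-75140657, 369 kb away and nearest to the mitochondrial outer membrane gene Mtx2, with 42 PETs in E14 cells. Its Ezh2 values were 1007, 2924, 943 and 867 PETs in the chr9 clones, 9082, 8018, 7155 and 115 PETs in the chr7 clones, and 1054 and 1571 PETs in parental cells. These PETs are not scaled to depth, and in both contacts the smallest chr7 value came from the library chr7-F4 replicate 2, whose interaction ends were the shortest of the 10 (mean 3.85 kb, against 4.76 to 11.3 kb).

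Hoxc had its strongest outward contacts nearby, while its farthest lay 99477 kb away. The strongest, 567 PETs, reached chr15:103161946-103190307 over the DNA repair gene Smug1, 125 kb away, and further ones reached chr15:103055362-103064026 (144 PETs) and chr15:102743380-102750411 beside Calcoco1 (103 PETs). In the Ezh2 libraries these partners lay within the cluster's own broad interaction end in 10, 10 and 9 of 10 libraries. A Hoxc contact of 32 PETs in E14 cells led 61643 kb away, to a site nearest to Oxr1, and was in 0 of the Ezh2 libraries. For Hoxb the strongest outward contact was chr11:96170238-96182071, 4056 bp from Ttll6 (53 PETs). In 9 of 10 Ezh2 libraries this site overlapped the cluster's own broad interaction end. Fainter Hoxd contacts led from Hoxd13 (14 PETs) and Hoxd11 (10 PETs) to Sp9 and from Hoxd3 (11 PETs) to a site beside Dlx2, both genes of transcription factors used in limbs and forebrain and both on chromosome 2.

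A pair of distant partners stood out by how often they appeared with other sites as well. The end at chr6:103648133-103650206 in Chl1 held 167 PETs with Hoxa in 3 interactions, took part in 21.1% of all interactions of chromosome 6, and was in 0 of the 10 Ezh2 libraries. The end at chr2:98661285-98668265 took 11217 PETs with Hoxd in 2 interactions and part in 26.4% of the interactions and 90.3% of the PETs of chromosome 2. Without it Hoxd had 351 outward interactions with 1372 PETs.

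The Ezh2 libraries of the B6NJ lines showed the same internal contacts. In each of the 10 libraries the largest interaction inside Hoxa, Hoxb and Hoxc ranked 1 to 3 of the library, and that inside Hoxd ranked 4 to 7, among 4734 to 9354 interactions. Inside again means that both ends overlapped the span. From end to end this interaction measured 251 to 1075 kb in Hoxa, 299 to 746 kb in Hoxb, 327 to 793 kb in Hoxc and 201 to 290 kb in Hoxd. The spans themselves measure 98.5, 174, 116 and 96.9 kb, so these PETs take in flanking DNA, by a width that differs between libraries. The interactions inside the clusters held 15.0%, 15.7%, 9.74% and 10.9% of a library's PETs in the chr9 clones, 13.5%, 13.97%, 13.8% and 18.7% in the chr7 clones, and 19.6% and 18.3% in parental cells. All 4 chr9 libraries lay below both parental libraries, and so did 3 of the 4 chr7 libraries, with chr7-F4 replicate 2 between the parental values. In each of the 4 clusters every chr9 library was below both parental ones, and in Hoxb and Hoxc so was every chr7 library. In Hoxa and Hoxd, chr7-F4 replicate 2 was above both parental libraries and the other chr7 libraries were below them. Hoxc took 3.93% ± 1.05 of the PETs in the chr9 clones (SD, n = 4), 4.33% ± 0.34 in the chr7 clones (n = 4) and 5.88% ± 0.79 in parental cells (n = 2).

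Neither difference passed a test. By PETs, the exact two-sided permutation test over libraries, against parental cells, gave p = 0.133 for the chr9 and p = 0.2 for the chr7 clones. The smallest p that 4 against 2 libraries allow is 0.0667. The test treats libraries of the same clone as separate units, so these p-values do not cover the spread between clones. Counted as interactions per 10000 of the library, the clusters held 12.8 ± 13.97 in the chr9 clones and 6.499 ± 2.76 in parental cells (SD, n = 4 and 2, exact p = 0.8). The chr7 clones held 5.86 ± 2.78, against 6.499 ± 2.76 in parental cells (n = 4 and 2, exact p = 0.867). Nearly every library listed 4 inside interactions, 1 per cluster. The exceptions were chr9-F1 replicate 1 with 24 and chr7-F4 replicate 2 with 7, and without chr9-F1 replicate 1 the chr9 difference changed sign, with 5.87 per 10000 in the chr9 clones. That library is named for the clone in its title but carries the parental cell type in another label. Mean end length ran from 3.85 to 11.3 kb over the libraries. Its part in these counts, and that of how the caller split broad domains, was not tested.

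**Figure D2:**
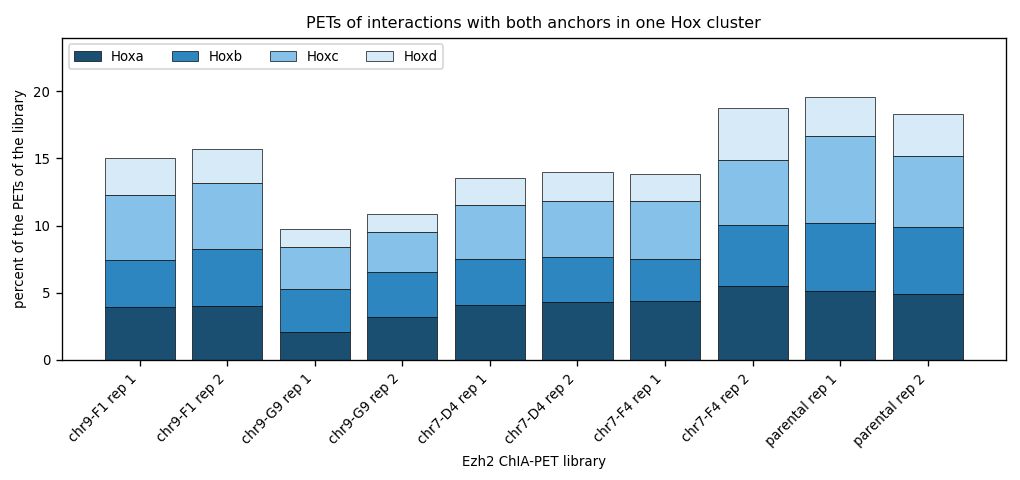
Percent of each Ezh2 ChIA-PET library's PETs in interactions with both ends overlapping the span of the same Hox cluster, stacked by cluster, for the 4 chr9, 4 chr7 and 2 parental libraries. The ends can reach past the span. The chr9 libraries reach 9.74% to 15.7% and lie below the parental libraries at 18.3% and 19.6%.

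In RNA, Hox genes were weak in all 9 lines. The gene counts of a library summed to 39.7 M to 128 M, and levels are given as counts per M counts of the library (CPM), scaled by the trimmed mean of M-values (TMM), not divided by gene length. The mean over the 26 libraries ran from 0.0105 CPM for Hoxb5 (20 counts in all) to 5.07 CPM for Hoxc13 (9347 counts). Only 5 of 38 members averaged 1 CPM or more, 15 averaged under 0.1 CPM, and 17 had a count in every library. Hoxc13, Hoxb13, Hoxc4 and Hoxb9 gave 26.2%, 13.1%, 9.39% and 6.47% of all Hox counts. Stem cell markers stood far higher, with the 10 genes of that list (Pou5f1, Sox2 and Nanog among them) summing to 6949.8 to 8318.3 CPM in the chr9, 7396 to 7805 in the chr7, 7912 to 8878 in the chr3 and 8455 to 9360 CPM in the chr2 clones, and to 6164 to 6616 CPM in parental cells.

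Summed over the 38 members, the RNA level was 20.03 ± 0.68 CPM in chr9-F1 (SD, n = 2), 28.1 ± 2.80 in chr9-G9, 15.0 ± 0.94 in chr7-D4, 15.9 ± 1.54 in chr7-F4, 10.1 ± 1.13 in chr3-C2, 9.74 ± 0.67 in chr3-H7, 36.9 ± 4.33 in chr2-D10 and 24.2 ± 2.01 in chr2-G5, against 15.96 ± 0.29 CPM in parental cells (n = 3 each). The chr9 and chr2 clones thus lay above the parental range of 15.7 to 16.2 CPM in every library and the chr3 clones below it in every library, while the chr7 clones straddled it. With bulk RNA, fewer cells that express a gene and less RNA per cell cannot be told apart.

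**Figure D3:**
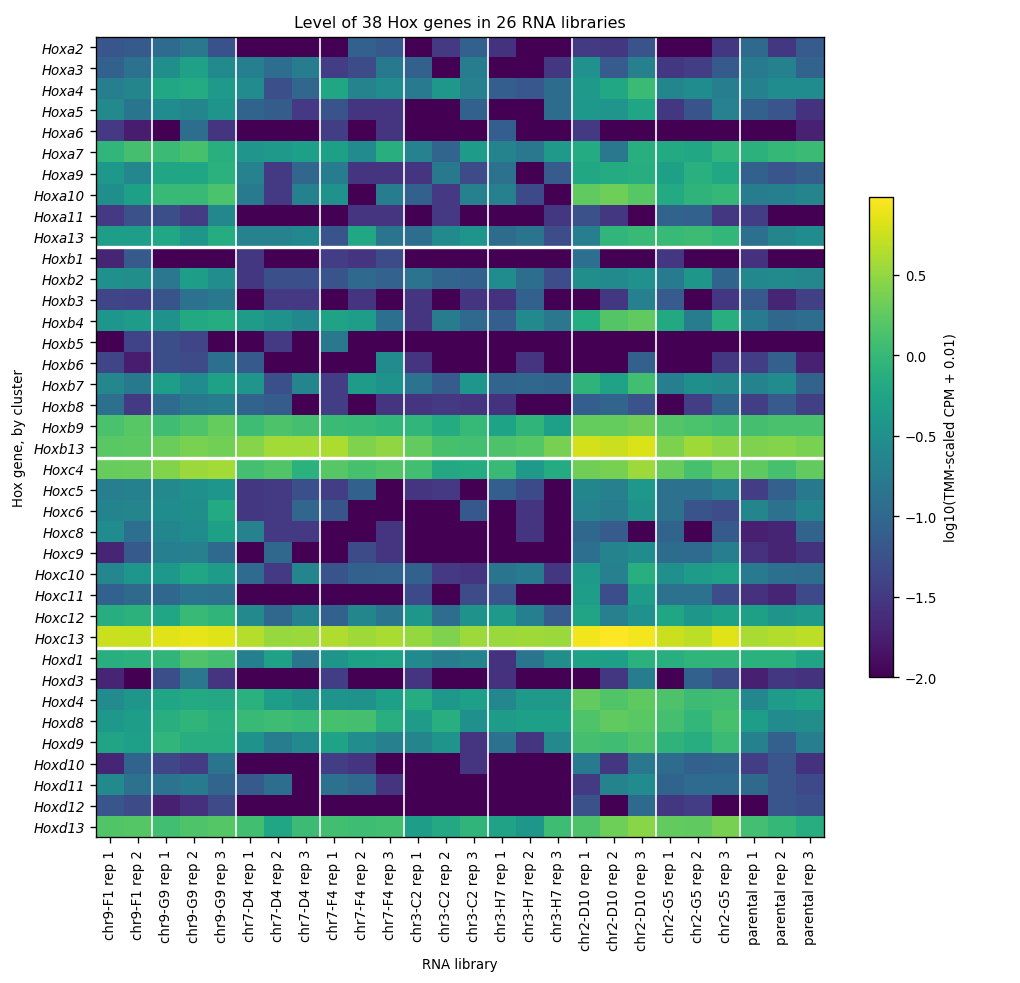
RNA level of the 38 Hox genes (rows, by cluster) in the 26 libraries (columns, deletion clones first and parental last) as log10 of TMM-scaled CPM plus 0.01. Hoxc13 and Hoxb13 are the brightest rows and most other rows stay under 1 CPM.

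The member with the highest mean in each cluster was measured best. Hoxc13, a regulator of hair and nail formation, averaged 5.46 ± 0.04 CPM in chr9-F1 (n = 2), 7.07 ± 0.28 in chr9-G9, 3.76 ± 0.61 in chr7-D4, 3.94 ± 0.34 in chr7-F4, 3.09 ± 0.51 in chr3-C2, 3.48 ± 0.12 in chr3-H7, 8.80 ± 0.73 in chr2-D10 and 5.78 ± 1.03 in chr2-G5, and 4.39 ± 0.38 CPM in parental cells (SD, n = 3 each). Hoxb13, used in the tail bud and prostate, averaged 1.67 ± 0.05 CPM in chr9-F1, 2.22 ± 0.23 in chr9-G9, 3.38 ± 0.57 in chr7-D4, 3.27 ± 0.82 in chr7-F4, 1.44 ± 0.33 in chr3-C2, 1.76 ± 0.50 in chr3-H7, 6.11 ± 0.48 in chr2-D10 and 3.02 ± 0.58 in chr2-G5, and 2.53 ± 0.13 CPM in parental cells. It departs from Hoxc13 in the chr9 and chr7 clones.

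Hoxd13, required for digits, averaged 1.51 ± 0.07 CPM in chr9-F1, 1.40 ± 0.18 in chr9-G9, 0.956 ± 0.336 in chr7-D4, 1.188 ± 0.04 in chr7-F4, 0.653 ± 0.215 in chr3-C2, 0.668 ± 0.401 in chr3-H7, 2.12 ± 0.73 in chr2-D10 and 2.01 ± 0.31 in chr2-G5, and 0.966 ± 0.252 CPM in parental cells. Hoxa7, a trunk gene, averaged 1.09 ± 0.23 CPM in chr9-F1, 1.04 ± 0.27 in chr9-G9, 0.405 ± 0.065 in chr7-D4, 0.504 ± 0.247 in chr7-F4, 0.240 ± 0.177 in chr3-C2, 0.247 ± 0.126 in chr3-H7, 0.521 ± 0.326 in chr2-D10 and 0.718 ± 0.165 in chr2-G5, and 0.950 ± 0.122 CPM in parental cells. Unlike the other 3, Hoxa7 was not higher in the chr2 clones: the chr9 libraries overlapped the parental range, and the remaining clones had lower means.

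Each deletion was tested as the mean of its clones minus parental with edgeR's quasi-likelihood test over 19993 genes, Benjamini-Hochberg adjusted at 0.05. Of the 38 members 27 passed the filter on low counts, and the 11 that did not had at most 102 counts over all libraries (Hoxa2, Hoxa6, Hoxa11, Hoxb1, Hoxb3, Hoxb5, Hoxb6, Hoxb8, Hoxd3, Hoxd10 and Hoxd12). A gene could pass through the lines in which it is high, so the counts below describe the tested members and not the family. In the chr9 clones 15 of 27 rose, where 17.1% of all tested genes did, and 0 fell, where 20.6% did. The median log2 fold change was 0.73, against -0.02 over all genes. For the count of 0, edgeR at an unadjusted p of 0.05 gave 1 member and DESeq2 gave 0.

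In the chr9 clones the rises were spread over 8 of 9 tested genes of Hoxc, 4 of 7 of Hoxa, 2 of 6 of Hoxd and 1 of 5 of Hoxb, and over 9 of 13 tested genes numbered 9 to 13 and 6 of 14 numbered 1 to 8. The 15 genes were Hoxa5, Hoxa9, Hoxa10, Hoxa13, Hoxb4, Hoxc4, Hoxc5, Hoxc8 to Hoxc13, Hoxd8 and Hoxd9, with log2 fold changes from 0.50 for Hoxc13 to 2.86 for Hoxc8. For 13 of the 27 every chr9 library was above every parental library, as for 15.6% of all tested genes. The count depends on single libraries: it was 7 without parental replicate 2 and 8 without chr9-F1 replicate 2.

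In chr9-F1 alone 4 members rose (12.2% of all genes) and 1 fell (Hoxb13, 12%), and in chr9-G9 alone 16 rose (21%). Called in the chr9 clones together and in each of them were Hoxa9, Hoxb4, Hoxc8 and Hoxd9 (8.33% of all genes were so called higher and 7.5% lower). Hoxa9, a trunk and limb gene also active in blood progenitors, had 0.382 and 0.233 CPM in chr9-F1 and 0.577, 0.554 and 0.797 in chr9-G9, against 0.0737, 0.0512 and 0.0706 CPM in parental cells. Every chr9 library was above every parental one. Its log2 fold change was 2.72 (SE 0.57, adjusted p = 0.000293).

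Hoxb4, which acts in hindbrain and blood progenitors, had 0.361 and 0.421 CPM in chr9-F1 and 0.326, 0.634 and 0.703 in chr9-G9, against 0.164, 0.0921 and 0.106 CPM in parental cells (log2 1.92, SE 0.50, adjusted p = 0.00268). Hoxc8, a trunk gene, had 0.276 and 0.113 CPM in chr9-F1 and 0.226, 0.269 and 0.487 in chr9-G9, against 0.00818, 0.0102 and 0.0794 CPM in parental cells (log2 2.86, SE 0.80, adjusted p = 0.00538). Hoxd9, used in trunk and limb, had 0.541 and 0.474 CPM in chr9-F1 and 0.920, 0.721 and 0.722 in chr9-G9, against 0.196, 0.0717 and 0.177 CPM in parental cells (log2 2.06, SE 0.45, adjusted p = 0.000465). In all 3 the groups did not overlap. Hoxb4 lies within the annotated span of Hoxb3, so reads there may have gone uncounted or to either gene, and the same holds for Hoxa4, Hoxa5 and Hoxa6 within Hoxa3, for Hoxd4 within Hoxd3, and for Hoxd10 and Hoxd11, which overlap.

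Minus chr9-F1, chr9-G9 was higher for 5 of 27 members, a share near the 14.1% of all genes, and lower for 0 (17.4%; edgeR gave 0 at an unadjusted p of 0.05, and DESeq2 called 6 in either direction). They were Hoxa10, Hoxa4, Hoxd8, Hoxc4 and Hoxc13. Hoxa10 averaged 1.13 ± 0.20 CPM in chr9-G9 and 0.393 ± 0.135 in chr9-F1 (SD, n = 3 and 2), a log2 difference of 1.51 (SE 0.55, adjusted p = 0.0355). With any 1 library left out 0 to 2 Hox genes were called, and with replicate number as a block 2 were.

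In the chr7 clones Hox genes moved both ways: 3 of 27 rose (27.6% of all genes) and 6 fell (35.7%), both shares below those of all genes. The median log2 fold change was -0.22, against -0.07 over all genes. Higher were Hoxb4, Hoxd8 and Hoxb13, lower were Hoxa7, Hoxb2, Hoxc6, Hoxc11, Hoxc12 and Hoxd1. In both clones, Hoxb4 and Hoxd8 rose (21.7% of all genes) and Hoxb2, Hoxc6 and Hoxc12 fell (28.7%). The count of rises was 1 without parental replicate 2. Of the 27 tested members 1 had every chr7 library above the parental ones (22.9% of all tested genes) and 6 had every chr7 library below them (31.4%).

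Hoxd8, a trunk gene, had 0.737 to 1.28 CPM in the chr7 clones (median 1.08, 6 libraries), against 0.466, 0.266 and 0.291 CPM in parental cells, with no overlap and a log2 fold change of 1.64 (SE 0.26, adjusted p = 2.31e-06). Hoxb4 had 0.113 to 0.517 CPM in the chr7 clones (median 0.378), against 0.164, 0.0921 and 0.106 CPM in parental cells, so that its groups overlapped (log2 1.48, SE 0.51, adjusted p = 0.0116). Hoxb2, which patterns the hindbrain, had 0.0203 to 0.0939 CPM in the chr7 clones (median 0.0466), against 0.237, 0.256 and 0.229 CPM in parental cells (log2 -2.19, SE 0.54, adjusted p = 0.000724). Every chr7 library of Hoxb2 was under every parental one.

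Hoxc12, a high-numbered gene, had 0.0739 to 0.244 CPM in the chr7 clones (median 0.163), against 0.491, 0.338 and 0.388 CPM in parental cells (log2 -1.32, SE 0.41, adjusted p = 0.00625). Hoxc6, which acts in the thoracic region, had 0 to 0.0861 CPM in the chr7 clones (median 0.0212), against 0.221, 0.123 and 0.212 CPM in parental cells (log2 -2.83, SE 0.69, adjusted p = 0.000679). Neither gene overlapped between the groups. Hoxc11 had no count in the 6 chr7 libraries and 7 counts in parental cells. With 3 counts over the group as the floor it was at least 2.02-fold lower in the chr7 clones.

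In the chr3 clones 11 of 27 members fell (35.4% of all genes), and 0 rose (25.4%; edgeR gave 0 at an unadjusted p of 0.05 and DESeq2 0). The share of the members that fell was thus near that of all genes. The median log2 fold change was -0.82, or -0.75 with the genes at 0 set to their bound, against -0.07 over all genes. Falls came from Hoxc (5 of 9), Hoxa (2 of 7), Hoxb (2 of 5) and Hoxd (2 of 6), with 7 of 14 numbered 1 to 8 and 4 of 13 numbered 9 to 13. In both chr3 clones 8 fell (27.3% of all genes, with 19.9% higher): Hoxa7, Hoxb9, Hoxb13, Hoxc4, Hoxc6, Hoxc13, Hoxd1 and Hoxd11. Of the 27 tested members 9 had every chr3 library below every parental one, a share near the 31.2% of all tested genes. Without parental replicate 1, 1 member rose.

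The fall was measured best in the strong genes. Hoxc13 had 2.54 to 3.62 CPM in the chr3 clones (median 3.41), against 4.07, 4.30 and 4.80 CPM in parental cells (log2 -0.42, SE 0.11, adjusted p = 0.0017). Hoxb13 had 1.22 to 2.33 CPM in the chr3 clones (median 1.48), against 2.54, 2.65 and 2.40 CPM in parental cells (log2 -0.67, SE 0.16, adjusted p = 0.000742). Both are modest changes in which no library crossed to the other group.

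Hoxc4, which acts in neck and upper trunk, had 0.406 to 1.192 CPM in the chr3 clones (median 0.675), against 1.73, 1.28 and 1.83 CPM in parental cells (log2 -1.08, SE 0.23, adjusted p = 0.000111). Hoxb9, a thoracic gene, had 0.470 to 0.977 CPM in the chr3 clones (median 0.784), against 1.26, 1.33 and 1.32 CPM in parental cells (log2 -0.82, SE 0.19, adjusted p = 0.000392). Hoxa7 had 0.0852 to 0.432 CPM in the chr3 clones (median 0.203), against 0.818, 0.972 and 1.06 CPM in parental cells (log2 -1.96, SE 0.36, adjusted p = 2.18e-05). In these 3 genes, too, no chr3 library reached a parental one.

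Hoxd1, the low-numbered end of its cluster and a gene of early neural tissue, had 0.0170 to 0.286 CPM in the chr3 clones (median 0.189), against 0.786, 0.798 and 0.547 CPM in parental cells (log2 -2.04, SE 0.36, adjusted p = 1.12e-05). Hoxc6 had 0 to 0.0564 CPM in the chr3 clones (median 0), against 0.221, 0.123 and 0.212 CPM in parental cells (log2 -3.85, SE 0.76, adjusted p = 5.54e-05). Hoxd11, a forearm and kidney gene, had no count in the 6 chr3 libraries, against 0.0982, 0.0512 and 0.0353 CPM (21 counts) in parental cells, which is at least 6.65-fold lower (edgeR adjusted p = 0.00111). These members were near or at the limit of what the chr3 libraries could count.

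In the chr2 clones 15 of 27 members rose (31.2% of all genes), and 0 fell (34.1%; edgeR gave 0 at an unadjusted p of 0.05 and DESeq2 0). The median log2 fold change was 1.10, against -0.02 over all genes. Rises took 4 of 7 tested genes of Hoxa, 3 of 5 of Hoxb, 4 of 9 of Hoxc and 4 of 6 of Hoxd, and 10 of 13 numbered 9 to 13 and 5 of 14 numbered 1 to 8. In chr2-D10 alone 19 rose (32.8% of all genes) and in chr2-G5 alone 11 (25.8%). Of the 27 tested members 11 had every chr2 library above every parental one, as had 21.1% of all tested genes. All 11 called in chr2-G5 were also called in chr2-D10 (19.3% of all genes were called higher in both, and 21% lower).

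In Hoxa, 3 genes were called in both chr2 clones. Hoxa9 had 0.491 to 0.768 CPM in the chr2 clones (median 0.635), against 0.0737, 0.0512 and 0.0706 CPM in parental cells (log2 3.24, SE 0.57, adjusted p = 9.13e-06). Hoxa10, used in uterus and lumbar trunk, had 0.654 to 2.13 CPM in the chr2 clones (median 1.30), against 0.172, 0.184 and 0.221 CPM in parental cells (log2 2.68, SE 0.49, adjusted p = 1.48e-05). Neither overlapped. Hoxa13, used in digits and genital tract, had 0.180 to 1.12 CPM in the chr2 clones (median 0.977), against 0.115, 0.215 and 0.274 CPM in parental cells, with overlap (log2 2.08, SE 0.49, adjusted p = 0.000387).

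Hoxd9 had 0.719 to 1.41 CPM in the chr2 clones (median 1.12), against 0.196, 0.0717 and 0.177 CPM in parental cells (log2 2.81, SE 0.45, adjusted p = 2.25e-06). Hoxd8 had 0.942 to 1.77 CPM in the chr2 clones (median 1.37), against 0.466, 0.266 and 0.291 CPM in parental cells (log2 2.00, SE 0.27, adjusted p = 7.1e-08). Hoxd4, a neck gene, had 1.09 to 1.86 CPM in the chr2 clones (median 1.45), against 0.229, 0.420 and 0.503 CPM in parental cells (log2 1.90, SE 0.29, adjusted p = 9.49e-07). In these 3 genes of Hoxd every chr2 library was above every parental one. Hoxd13 had 1.39 to 2.85 CPM in the chr2 clones (median 1.99), against 1.22, 0.962 and 0.715 CPM in parental cells, again without overlap (log2 1.10, SE 0.26, adjusted p = 0.000491). Hoxd lies on the chromosome of this deletion, but the distance is unknown here.

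Hoxb4 had 0.173 to 1.77 CPM in the chr2 clones (median 0.720), against 0.164, 0.0921 and 0.106 CPM in parental cells (log2 2.76, SE 0.50, adjusted p = 1.55e-05). Its lowest chr2 library barely cleared the parental ones. Hoxc13 had 4.91 to 9.63 CPM in the chr2 clones (median 7.59), against 4.07, 4.30 and 4.80 CPM in parental cells (log2 0.70, SE 0.11, adjusted p = 1.67e-06). Hoxc10, a lumbar gene, had 0.188 to 0.742 CPM in the chr2 clones (median 0.413), against 0.155, 0.113 and 0.106 CPM in parental cells (log2 1.75, SE 0.50, adjusted p = 0.00302). Hoxc9, a thoracic gene, had 0.0991 to 0.263 CPM in the chr2 clones (median 0.147), against 0.0164, 0.0102 and 0.0177 CPM in parental cells (log2 3.25, SE 0.83, adjusted p = 0.00113), so its parental level rests on 5 counts.

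Minus chr2-D10, chr2-G5 was lower for 10 of 27 members (25% of all genes) and higher for 0 (25.7%; edgeR gave 0 at an unadjusted p of 0.05). Hoxb13 averaged 3.02 ± 0.58 CPM in chr2-G5 and 6.11 ± 0.48 in chr2-D10 (SD, n = 3 each; log2 -1.02, SE 0.19, adjusted p = 3.05e-05). Parental cells had 2.53 ± 0.13 CPM, so the excess over parental was mainly that of chr2-D10. Hoxa5, of the neck and lung region, averaged 0.0904 ± 0.0970 CPM in chr2-G5 and 0.429 ± 0.106 in chr2-D10. The count was 2 without chr2-D10 replicate 3 and 4 without chr2-G5 replicate 2.

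For the other deletions the clones gave no called difference. Minus chr7-D4, chr7-F4 had 0 of 27 members higher (0.385% of all genes) and 0 lower (0.58%), with 1 each way in edgeR at an unadjusted p of 0.05 and 0 in DESeq2. Minus chr3-C2, chr3-H7 had 0 higher (0.55%) and 0 lower (0.31%), with 2 lower in edgeR at an unadjusted p of 0.05 and 0 in DESeq2.

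**Figure D4:**
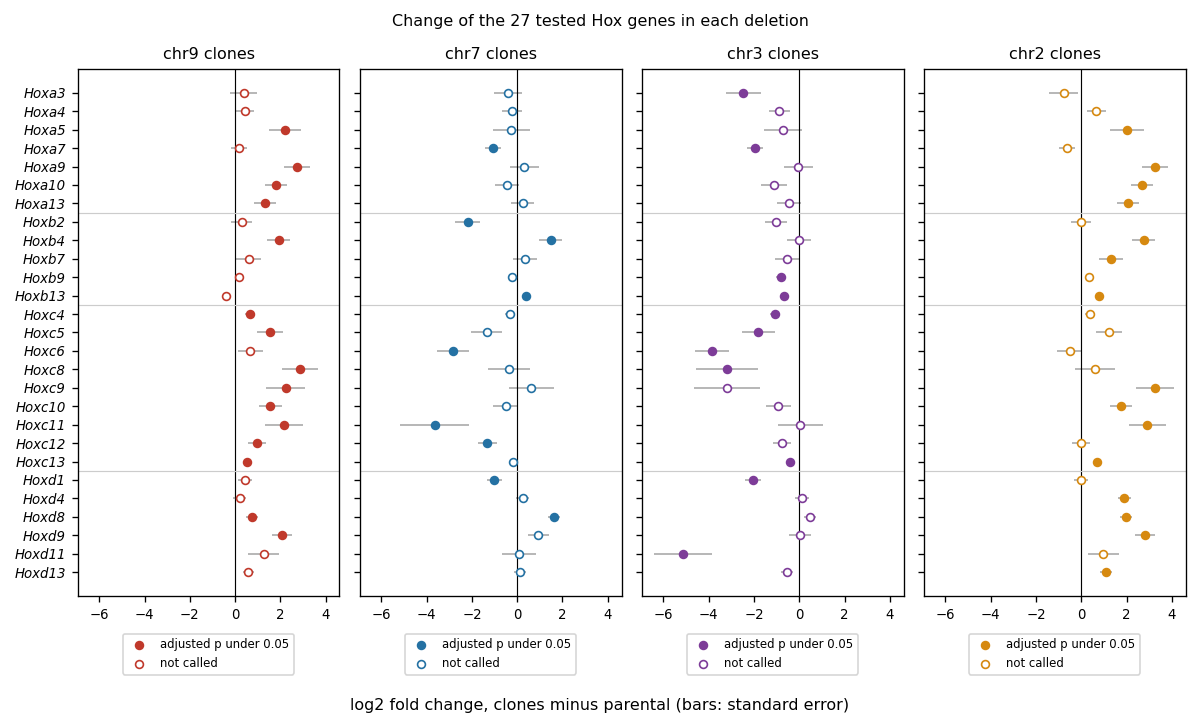
Log2 fold change of the 27 tested Hox genes in the chr9, chr7, chr3 and chr2 clones minus parental, with bars of 1 standard error and filled points for an adjusted p under 0.05. Filled points lie right of 0 for 15 genes in the chr9 and 15 in the chr2 panel and left of 0 for 11 genes in the chr3 panel, and the fitted points of Hoxc11 in the chr7 and of Hoxc9 and Hoxd11 in the chr3 panel stand for groups without a count and are not sizes.

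The 4 comparisons share the parental libraries, so each is given with its own values. Of the 27 tested members 11 were higher in both the chr9 and the chr2 clones, as were 11.9% of all tested genes. Across the 4 comparisons, 1 member (Hoxa4) was never called, and 7 were higher in at least 1 deletion and lower in at least 1 other. Hoxb4 and Hoxd8 were higher in 3 deletions, and Hoxa7, Hoxc6 and Hoxd1 were lower in 2. For these patterns over several deletions no share of all genes is given. In the single comparisons 17.1% to 31.2% of all tested genes were called higher and 20.6% to 35.7% lower. Whether repeated or mixed calls are particular to the members was not tested.

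The parental and chr9 libraries (8) held 90.3 M to 128 M counts and the chr7, chr3 and chr2 libraries (18) 39.7 M to 60.2 M. This set and the deletions cannot be told apart in a comparison with parental cells, so each of those deletions was also compared with the other 2 of its set. Minus chr7 and chr2, the chr3 clones were lower for 22 of 27 members (21.8% of all genes; median log2 -1.52) and higher for 0 (22.9%; edgeR gave 0 at an unadjusted p of 0.05 and DESeq2 0). Minus chr7 and chr3, the chr2 clones were higher for 26 (31.2% of all genes; median 1.72) and lower for 0 (28.5%; 0 and 0 likewise), the exception being Hoxa3. These comparisons use the same libraries and are not independent: the chr2 clones are in the reference of chr3, and the chr3 clones in that of chr2. Hoxd8, for example, was called lower in chr3 here (log2 -1.36) but was not called against parental cells (log2 0.46).

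Minus chr3 and chr2, the chr7 clones were higher for 2, Hoxb13 and Hoxd11 (18.9% of all genes), and lower for 7 (20.6%): Hoxa9, Hoxa10, Hoxb2, Hoxc11, Hoxc12, Hoxc13 and Hoxd4. Hoxc13, with the most counts, differed by log2 -0.67 (SE 0.09) for chr3 and 1.01 (SE 0.08) for chr2. The chr7 counts ran from 0 to 3 higher and 3 to 7 lower when 1 library was left out.

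Because the B6NJ lines grow on fibroblast feeders, and embryonic fibroblasts express Hox genes, a list of 25 fibroblast markers was read beside the members. Its 10 defining genes (Col1a1, Col1a2, Col3a1, Postn, Dcn, Lum, Thy1, Prrx1, Twist2 and Fap) summed to 53.3 ± 17.5 CPM in chr9-F1 (SD, n = 2) and 162 ± 74.4 in chr9-G9, and to 41.0 to 248 CPM over the chr9 libraries. They summed to 24.7 to 32.8 CPM in the chr7, 11.3 to 14.7 in the chr3 and 30.2 to 43.8 in the chr2 clones, against 33.5 to 49.8 CPM in parental cells (39.95 ± 8.70, n = 3). Both the Hox sum and the marker sum were lowest in the chr3 clones and above every parental library in chr9-G9, while in the chr2 clones the Hox sum was above every parental library and the marker sum within or below the parental range.

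Of all tested genes 17.1% rose and 20.6% fell in the chr9 clones, and 27.6% and 35.7% in chr7. In chr3 25.4% rose and 35.4% fell, and in chr2 31.2% and 34.1%. These shares stand beside the counts of every marker list here. Of the 7 defining markers tested, 7 rose in the chr9 clones, 4 fell in the chr7 clones, 6 fell in the chr3 clones, and 1 rose and 1 fell in the chr2 clones. Col1a1, the main collagen of connective tissue, averaged 24.4 CPM in chr9-F1, 85.3 in chr9-G9, 11.2 in chr7-D4, 11.3 in chr7-F4, 2.93 in chr3-C2, 3.54 in chr3-H7, 14.3 in chr2-D10 and 15.6 in chr2-G5, and 18.2 CPM in parental cells. Fap and Twist2 were at 0 in every chr7 and chr3 library, and Lum in every chr3 library. These 0 values carry little, because parental cells averaged only 0.0029 CPM for Fap, 0.045 for Twist2 and 0.0089 for Lum. The chr7 and chr3 libraries also held fewer counts than the parental ones, and Fap was at 0 in every chr2-D10 library too. Of all 25 markers 22 were tested: 20 rose in the chr9 clones, 2 rose and 9 fell in chr7, 2 rose and 18 fell in chr3, and 8 rose and 4 fell in chr2.

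The full list's sum, which takes in genes that stem cells express too, was 1596 to 2138 CPM in the chr9, 2216 to 2521 in the chr7, 2447 to 3142 in the chr3 and 1418 to 2367 in the chr2 clones, against 1503 to 1791 CPM in parental cells. The part of feeder cells in the Hox results was not tested. Mesoderm and neural markers, 2 further lists, summed to 7.31 to 19.1 and 54.7 to 93.3 CPM over the clones, against 25.96 to 27.2 and 85.3 to 89.9 CPM in parental cells. Of 7 tested mesoderm markers 3 rose and 1 fell in chr9, 1 rose and 2 fell in chr7, 2 fell in chr3, and 3 rose and 1 fell in chr2. Of 8 neural markers 1 fell in chr9, while 1 rose and 3 fell in chr7, 1 rose and 5 fell in chr3, and 1 rose and 3 fell in chr2.

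**Figure D5:**
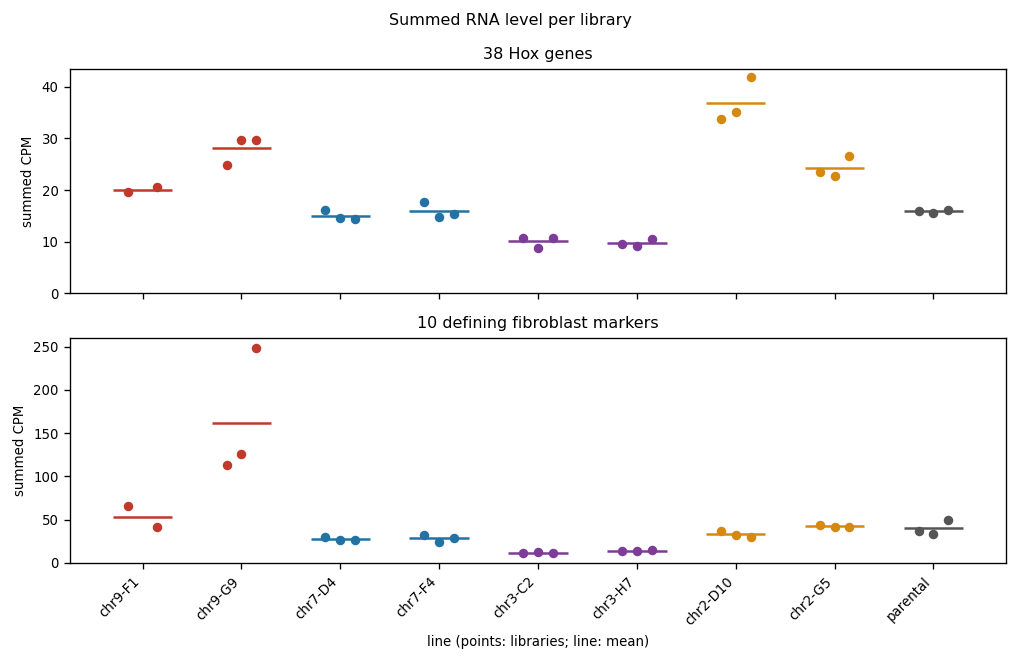
Summed RNA level (CPM) of the 38 Hox genes (top) and of the 10 defining fibroblast markers (bottom) per library, with a bar at each line's mean, deletion clones left and parental right. Hox sums are 19.5 to 29.7 CPM in the chr9 and 22.7 to 41.8 CPM in the chr2 clones, against 15.7 to 16.2 CPM in parental cells, and the chr3 clones are lowest in both panels.

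Genes that act with, before or beside the Hox genes were read from the same fit. The counts of each list below stand beside the shares of all tested genes. Those were 17.1% higher and 20.6% lower in chr9, 27.6% and 35.7% in chr7, 25.4% and 35.4% in chr3, and 31.2% and 34.1% in chr2. Hox proteins bind DNA together with cofactors, other homeodomain proteins such as Meis2, and of 9 cofactor genes 4 rose and 1 fell in the chr9 clones, 3 rose and 3 fell in chr7, 3 rose and 4 fell in chr3, and 6 rose and 1 fell in chr2. Their median log2 fold changes were 0.38, -0.02, -0.25 and 0.24, against -0.02, -0.07, -0.07 and -0.02 over all genes. Meis2 moved both ways: it averaged 4.58 ± 0.31 CPM in the chr9 clones (SD, n = 5), 0.227 ± 0.104 in chr7, 0.230 ± 0.128 in chr3 and 4.001 ± 0.84 in chr2 (n = 6 each), and 0.942 ± 0.311 CPM in parental cells (n = 3). Its log2 fold changes of 2.28, -2.08, -2.02 and 2.07 were all called.

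Retinoic acid and the Cdx proteins switch Hox genes on in the embryo. Of 20 genes of this list 9 rose and 2 fell in the chr9 clones, 2 rose and 9 fell in chr7, 1 rose and 14 fell in chr3, and 8 rose and 4 fell in chr2. Median log2 fold changes were 0.45, -0.27, -0.56 and 0.24. Cdx1 averaged 40.6 ± 6.58 CPM in the chr9 clones, 14.5 ± 1.12 in chr7, 13.8 ± 1.44 in chr3 and 16.2 ± 1.46 in chr2, against 26.6 ± 3.46 CPM in parental cells. Aldh1a2, which makes retinoic acid, had log2 fold changes of 1.00 in chr9, -0.83 in chr7 and -0.57 in chr3. The retinoic acid receptor gene Rarg averaged 57.4 ± 2.94 CPM in the chr7, 49.7 ± 3.52 in the chr3 and 49.2 ± 5.88 in the chr2 clones, against 100.0 ± 5.89 CPM in parental cells.

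The 13 PRC2 subunit genes summed to 2742 to 3099 CPM over the clones and 2771 to 2813 CPM in parental cells. Of them 6 rose and 3 fell in the chr9 clones, 5 rose and 6 fell in chr7, 6 rose and 5 fell in chr3, and 8 rose and 3 fell in chr2. Ezh2, the methyltransferase, averaged 181 CPM in the chr9 clones and 235 CPM in parental cells (log2 -0.37, SE 0.05, adjusted p = 5.65e-07). Epop, an accessory subunit, had log2 fold changes of 0.77 in chr9, -1.02 in chr7 and -1.01 in chr3.

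Of 17 tested genes beside the clusters 1 rose and 5 fell in the chr9 clones, 6 rose and 4 fell in chr7, 9 rose and 4 fell in chr3, and 9 rose and 2 fell in chr2. Calcoco2, an autophagy receptor gene in the Hoxb neighbourhood, averaged 110 CPM in the chr9, 25.7 in the chr7, 22.1 in the chr3 and 152 in the chr2 clones, against 49.2 CPM in parental cells (log2 1.18, -0.94, -1.16 and 1.51). Ttll6, the gene nearest to the strongest outward partner of Hoxb, had a log2 fold change of -0.34 in chr3 and 0.91 in chr2. Smug1, which overlaps the strongest outward partner of Hoxc, had 0.28 in chr7 and 0.32 in chr3. Of 12 noncoding RNAs of the clusters only 2 were tested, and 1 of them rose in chr9 and 1 in chr2. The strand setting of the counting is not stated, so such RNAs and the Hox genes they overlap may share reads.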

How the data were processed

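RNA of 26 libraries, Ezh2 ChIA-PET of 10 libraries and pooled E14 lists were used. Per the submitters' processing notes, reads were trimmed with Trim Galore 0.4.0, aligned to mm10 (HISAT2 2.1.0) and counted (HTSeq 0.6.1). The deposited RNA values are raw read counts per gene; 1 chr3-C2 library names no tools, and the strand setting is not stated. The authors' peak lists give the fold enrichment as a ratio and the significance as −log10 of a p-value or q-value, as the MACS2 2.1.1.20160309 caller writes them. The deposited interaction lists give PET counts with a p-value, the E14 list from ChiaSig 1.19.45 per the file headers; the caller of the Ezh2 lists is not stated.

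The summary rows were left out of library sizes: reads not unique made up 15.0% to 17.2%, reads outside genes 3.50% to 5.80% and ambiguous reads 0.943% to 1.08%. Counts were tested with edgeR 4.0.16 (quasi-likelihood, TMM, filterByExpr) in R 4.3.3 on all 26 libraries, with 9 lines as groups, and p-values were Benjamini-Hochberg adjusted over 19993 genes. DESeq2 1.42.0 was an alternative. The fit was tested on simulated data with 200 changed genes. Nothing says that libraries of a line come from separate cultures, and p-values then cover only library-to-library spread, which may be technical. No 2 libraries of a line were alike within sampling noise. Per-library values are given for members called in a deletion and in both of its clones, and for the member with the highest mean of each cluster. The members and gene lists were chosen with earlier results of these data known. Ezh2 values were compared by an exact two-sided permutation test over libraries.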

Additional observations from a re-analysis of the deposited data

Results flagged for a closer look

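Of 24 groups of libraries from Ezh2 ChIA-PET and summed Hox RNA, 3 held a library far from the others, all of them in Ezh2 ChIA-PET. A single group passes this limit by chance in about 1 in 20 cases, but the groups share libraries. The library chr9-F1 replicate 1 had 33.8 interactions inside the Hox clusters per 10000, chr7-F4 replicate 2 had 10.02 per 10000, and chr7-F4 replicate 2 had 18.7% of its PETs inside.

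The clones of a deletion differed by edgeR's test of the difference itself. In chr9-G9 minus chr9-F1 the log2 differences were 0.38 for Hoxc13, 0.72 for Hoxc4, 0.92 for Hoxd8, 1.47 for Hoxa4 and 1.51 for Hoxa10. In chr2-G5 minus chr2-D10 they were -2.34 for Hoxa3, -2.19 for Hoxa5, -1.83 for Hoxb7, -1.62 for Hoxa4, -1.34 for Hoxb4, -1.16 for Hoxa10, -1.02 for Hoxb13, -0.63 for Hoxc4, -0.60 for Hoxc13 and -0.53 for Hoxb9. Against the other 2 deletions of their set, the chr7 clones had 2 Hox genes higher and 7 lower, the chr3 clones 22 lower and the chr2 clones 26 higher. Depth was not equal within the set: libraries held 41.3 M to 53.3 M counts in chr7, 49.3 M to 60.2 M in chr3 and 39.7 M to 48.6 M in chr2. These comparisons share their libraries and are not independent.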

How the results depend on the processing

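Over the 50 calls of single Hox genes, 746 values under alternatives gave the same call in 646, no call in 100 and the opposite call in 0. Calls that held under every alternative run were 6 of 15 in chr9, 1 of 3 higher and 5 of 6 lower in chr7, 9 of 11 in chr3 and 13 of 15 in chr2. Replicate numbers did not pair the libraries (2 of 100 same-numbered pairs correlated above 0.1), and with the replicate block 46 of 50 calls held.

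At an adjusted p of 0.01 the counts became 6 higher in chr9, 1 higher in chr7, 0 between the chr9 clones, 3 between the chr2 clones, and 0 higher and 4 lower in chr7 minus chr3 and chr2. With at least 1 CPM in 3 libraries they were 6 higher in chr9, 1 lower in chr7, 5 lower in chr3, 9 higher in chr2, 5 between the chr2 clones, 3 lower in chr7 within its set, 11 lower in chr3 and 11 higher in chr2 within theirs. With no filter 1 was lower in chr9, 1 lower in chr2 and 3 differed between the chr9 clones. With only the lines compared 1 was lower in chr9, 6 were lower in chr3, 8 differed between the chr9 clones, and chr7 within its set had 1 higher and 3 lower. DESeq2 gave 1 higher there. With the replicate block 2 differed between the chr9 clones. By a choice made after seeing the data, chr9-F1 alone gave 4 higher and 1 lower. Fewer genes or libraries enter the stricter filter and the smaller fits; the cause of the other changes was not tested.

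Leaving out 1 library gave 7 to 14 higher and 0 to 1 lower in chr9, 1 to 3 higher and 5 to 6 lower in chr7, 0 to 1 higher and 10 to 13 lower in chr3, 13 to 15 higher in chr2, 0 to 2 between the chr9 clones, 2 to 8 between the chr2 clones, 0 to 3 higher and 3 to 7 lower in chr7 within its set, 20 to 23 lower in chr3 and 23 to 26 higher in chr2 within theirs. At 10 or more PETs, outward E14 interactions were 11, 3, 29 and 10 for Hoxa, Hoxb, Hoxc and Hoxd. The Ezh2 difference in chr9 turned to -609.316 per 10000 PETs when weighted by PETs, and ran from -0.627 to 8.95 when 1 library was left out. That in chr7 turned to 0.75 unscaled and 1.87 with the span widened by 10 kb, and ran from -2.59 to 1.31.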
